A study of Mus musculus with 17 samples.

Results

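The 40 genes described here encode extracellular matrix proteins and the enzymes, chaperone, proteases and inhibitors that build, process and remodel them. They were given as a named list whose rule uses no measured value, although it was drawn up with earlier results of these data known, and all 40 were found among the 55416 gene IDs of the count files. By role they comprise 12 basement membrane genes, 12 interstitial collagens and matrix glycoproteins, 8 genes of collagen-processing enzymes and their chaperone, 5 matrix proteases and inhibitors, and 3 latent TGF-beta binding proteins. RNA was measured in E14Tg2a.4 mouse embryonic stem cells, kept in serum with leukemia inhibitory factor. Only 1 line was used, in which a FLAG-TEV-AviTag is fused to Rpl31, a protein of the large ribosomal subunit (Rpl31-FTA). ALIBi, a proximity biotinylation system, here aimed at the endoplasmic reticulum (ER), marks tagged ribosomes there for affinity purification. How ALIBi was introduced into siRNA-treated cells is not given in the sources used here. The groups differ in the siRNA the cells had received (scramble as control, Nmd3 or Gnl3) and in the fraction: polyA RNA bound to the purified ER ribosomes, or whole-cell polyA RNA of the same lysates. Nmd3 is known as an export adaptor of the large ribosomal subunit, and Gnl3 (nucleostemin) as a nucleolar GTPase. The main comparisons used 15 libraries: scramble whole-cell replicates 1, 2 and 3, scramble ER replicates 2 and 3, Nmd3 whole-cell replicates 1 and 3, Nmd3 ER replicates 1, 2 and 3, Gnl3 whole-cell replicates 1 and 2, and Gnl3 ER replicates 1, 2 and 3. The labels say that the submitters dropped Nmd3 whole-cell replicate 2 and Gnl3 whole-cell replicate 3 as outliers, so both were kept out of the main tests. The labels call the replicates biological.

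Matrix proteins are secretory proteins. Their mRNAs are read by ribosomes docked at the ER membrane, where a signal peptide at the start of the growing chain directs it into the ER lumen. There, collagen chains are hydroxylated on proline and lysine, assemble into triple helices with the help of the chaperone Serpinh1 (Hsp47), and leave for the Golgi and the cell surface. Outside the cell, lysyl oxidases cross-link them and metalloproteases and their inhibitors set their turnover. Basement membranes, sheets of laminin, type IV collagen, nidogen and heparan sulfate proteoglycans, are the first matrix of the mouse embryo.

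The first 75 coding bases of 6 members are shown because they hold the stretch that is translated before a chain reaches the ER, and because these genes stand for the members on either side of the comparison between the fractions. They run from the start codon, in capitals, in the principal transcript of the GENCODE M21 annotation. Sparc, Timp1, Serpinh1 and Col18a1 were higher in ER ribosome-bound RNA and Lama1 and Vcan were lower, with the values given further on.
Sparc: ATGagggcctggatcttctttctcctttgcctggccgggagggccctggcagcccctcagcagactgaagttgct
Timp1: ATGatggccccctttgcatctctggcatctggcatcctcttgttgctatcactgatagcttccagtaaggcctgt
Serpinh1: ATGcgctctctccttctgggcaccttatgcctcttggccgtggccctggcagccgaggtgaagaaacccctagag
Col18a1: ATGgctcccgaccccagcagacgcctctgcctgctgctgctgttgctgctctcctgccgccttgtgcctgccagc
Lama1: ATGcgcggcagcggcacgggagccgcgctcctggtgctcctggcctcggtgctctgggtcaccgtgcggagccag
Vcan: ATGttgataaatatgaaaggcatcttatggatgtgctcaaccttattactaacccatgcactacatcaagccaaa
A T in the middle of a codon always encodes a hydrophobic residue, the kind that forms the core of a signal peptide. Over codons 2 to 25, the share of codons with T in the middle was 33.3% in Sparc, 37.5% in Lama1 and 41.7% in Timp1, Serpinh1, Col18a1 and Vcan. Of the other 2 members that were lower with every siRNA, Agrn had 41.7% and Lama5 8.33%. Over all 40 members the median was 37.5%, with Lama5 the lowest and P4ha2 the highest at 58.3%, against 25% over 14189 genes. Of the members, 31 reached 33.3%, the 75th percentile of all genes, while the median over their whole coding regions was 22.0%.

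Levels of single libraries are counts per 1000000 gene counts (CPM), and levels of different genes are compared only per kilobase of exon. In scramble whole-cell RNA the highest members per kilobase were Nid2, a nidogen that links laminin to collagen IV (56.1 ± 3.63 CPM per kb, mean ± SD, n = 3), Col18a1, the collagen whose end fragment is endostatin (51.5 ± 2.3), and Sparc, a collagen-binding matricellular glycoprotein (47.5 ± 0.503). Nid2 and Col18a1 lay within their spreads of each other. Next came the laminin gamma 1 chain Lamc1 (38.7 ± 3.67), Ltbp4 (29.8 ± 0.781), fibronectin Fn1 (29.0 ± 3.41) and Serpinh1 (26.5 ± 1.21), of which Ltbp4, Fn1 and Serpinh1 had overlapping or touching ranges. Agrn and Lama5 followed at 22.9 each. The basement membrane genes thus held 5 of the first 9 places. The fibril-forming collagens stood at the other end. Col1a1 was at 0.448 ± 0.159 CPM per kb, Col1a2 at 0.0386 ± 0.013 and Col3a1 at 0.0157 ± 0.0183, and the cross-linking enzyme Lox was at 0.106 ± 0.0644.

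Few reads stood behind the lowest members. In the 15 libraries Col3a1 had 0 to 8 counts and Tnc, the glycoprotein tenascin C, 1 to 10, and both were under the low-count limit of every test. Col6a1 had 3 to 15 counts, Col1a2 3 to 21, Lox 1 to 21 and Bgn, the proteoglycan biglycan, 4 to 46. At these depths, differences of these 6 genes were detectable only where large, and Bgn was the only one called in a main test. Without scramble ER replicate 2, Col6a1 was called higher on ER ribosomes with scramble siRNA (1.96, adjusted p = 0.0312). Reads of Col4a1 and Col4a2, and of Nid1, Nid2, Fn1, Plod2, Plod3, Loxl2, Timp3, Ltbp3 and Lox with genes on the other strand, cannot be separated with certainty, because their exons overlap and the strand setting of the counting is not given in the sources used here.

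Stem cell identity was as labelled. The 11 embryonic stem cell markers summed to 6710 to 10300 CPM per library. Markers of cells that make much matrix were low. The 14 endoderm markers summed to 19.6 to 26.4 CPM and the 12 fibroblast markers to 38.5 to 71.5 CPM, of which 7 had means under 1 CPM in each group, with Fap at 0 in every library and Thy1, Tagln and Twist1 most abundant. The 5 endothelial markers summed to 12 to 24.1 CPM with Emcn at 0, and the 6 trophectoderm markers to 137 to 169 CPM. In bulk RNA, fewer cells of a type and less RNA per cell cannot be told apart.

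Libraries held 15198736 to 29904256 gene counts. Nmd3 mRNA was at 150.2 to 154 CPM in scramble and at 43.2 and 43.7 CPM in Nmd3 whole-cell RNA (log2 fold change -1.81), and at 120 to 124 against 24.1 to 25.2 CPM on ER ribosomes (-2.29). Gnl3 mRNA was at 256 to 272 CPM in scramble and at 54.2 and 70.2 CPM in Gnl3 whole-cell RNA (-2.1), and at 170.0 and 177 against 26.9 to 31.6 CPM on ER ribosomes (-2.58). Exons of Gnl3 overlap those of Pbrm1 on the other strand. Both siRNAs therefore lowered the mRNA that their label names. Nmd3 ER replicate 2 was high for the matrix genes: 37 of the 40 were above the mean of the other 2 Nmd3 ER libraries, with a median log2 ratio of 0.23. The share of all genes above that mean was not counted. The same library was high for long genes (Spearman correlation of its log2 ratio with coding length 0.28 across 10461 genes) and held 263 CPM of Gnl3 against 164 and 179.8 CPM in the other 2. Other libraries leaned to 1 side for the matrix genes too. In Nmd3 ER replicate 1, 5 of the 40 were above the mean of the other 2 (median log2 ratio -0.18). In Gnl3 whole-cell replicates 1 and 2, 9 and 31 of the 40 were above the other library. A length tilt was not particular to Nmd3 ER replicate 2 either. Against the other libraries of its own group, scramble whole-cell replicate 2 had -0.41, replicates 1 and 3 had 0.24 and 0.26, and Nmd3 ER replicate 1 had -0.29. Nmd3 ER replicate 2 was picked out on its matrix gene values themselves. Counts and medians over the matrix genes that use Nmd3 ER RNA are therefore given with and without it, and single genes mainly where their call changes.

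With scramble siRNA, 23 of the 38 members tested differed between ER ribosome-bound and whole-cell RNA in edgeR's quasi-likelihood test, 17 of them higher on ER ribosomes and 6 lower. Of all 18271 genes tested, 50.3% were called, 25.1% higher and 25.3% lower. Calls needed an adjusted p under 0.05, and a difference is relative to the average mRNA of the 2 fractions. With Nmd3 siRNA 20 members were higher and 4 lower (all genes 50.1% called, 24.5% higher and 25.6% lower), and without Nmd3 ER replicate 2 the counts were 20 and 7. With Gnl3 siRNA 19 were higher and 6 lower (all genes 48.1% called, 23.3% higher and 24.9% lower). The median member log2 fold change was 0.23, 0.42 and 0.53 with scramble, Nmd3 and Gnl3 siRNA, against 0.0228, 0.0104 and 0.0179 over all genes. Without Nmd3 ER replicate 2 the Nmd3 median was 0.366, against 0.0199 over all genes. In the main fit 9197, 9152 and 8795 of the 18271 genes were called with scramble, Nmd3 and Gnl3 siRNA. A fit with the 2 dropped libraries had a larger spread (biological coefficient of variation 0.236 against 0.0625). In that fit 10, 17 and 16 members were called, and 2353, 2819 and 4540 of 18525 genes, so calls fell across all genes. Calls lost there were those of Lama1, Lama5, Agrn and Timp3 with every siRNA, of Timp1 with scramble and Nmd3, of Npnt, Plod2 and Ltbp4 with scramble and Gnl3, of Nid1 with Nmd3 and Gnl3, of Col4a1, Col18a1, Plod1, Mmp14 and Ltbp1 with scramble, of Vcan with Nmd3, and of Col4a2 with Gnl3 siRNA.

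**Figure D1:**
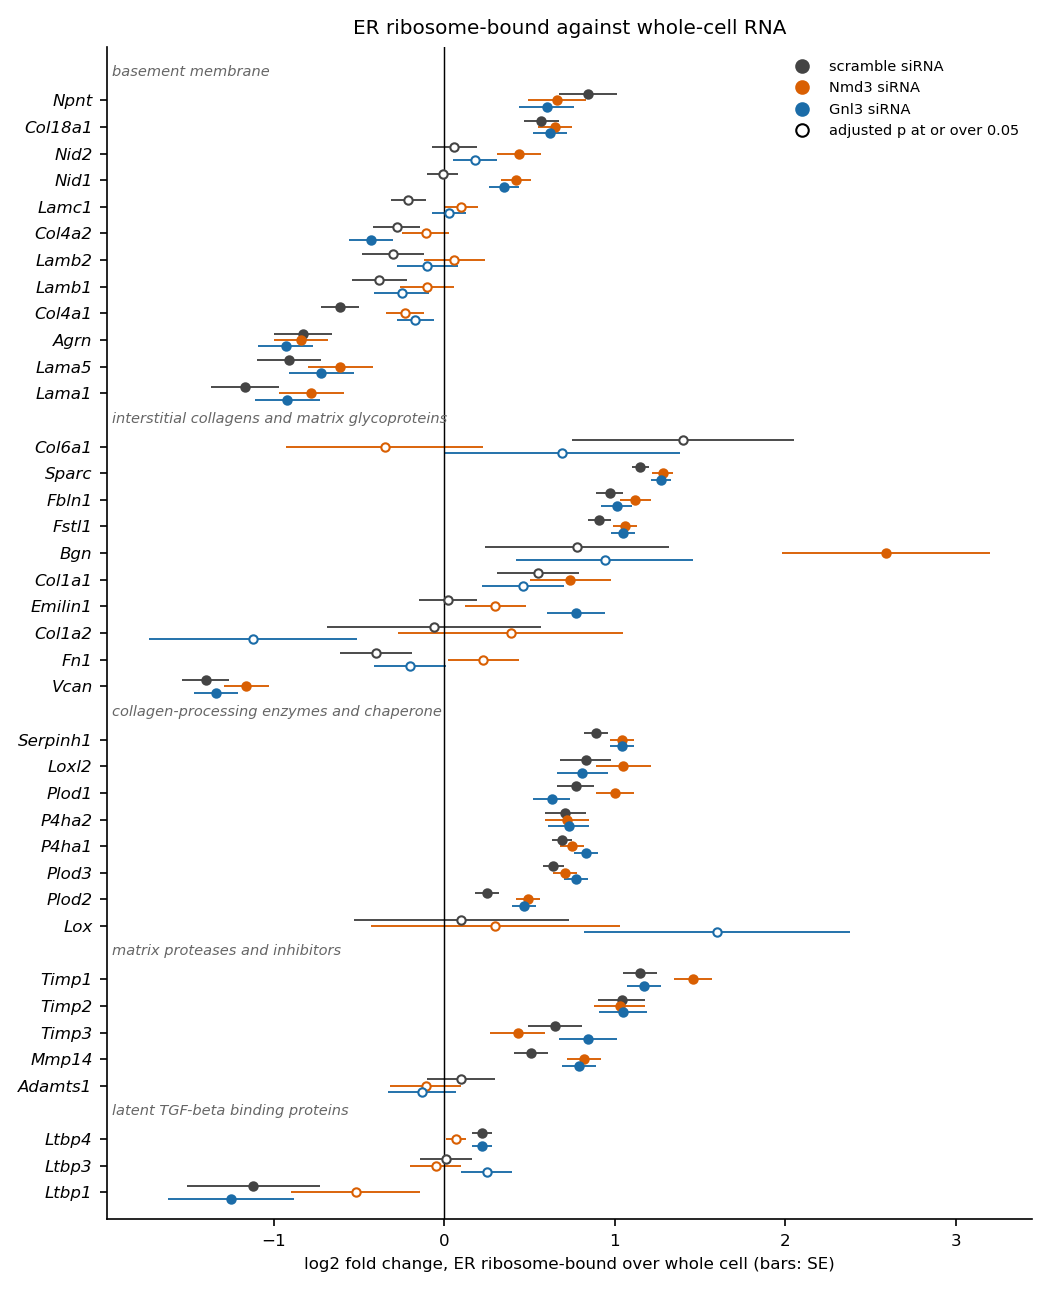
Log2 fold change of ER ribosome-bound over whole-cell RNA (horizontal axis) for the 38 members tested, grouped by role, with scramble, Nmd3 and Gnl3 siRNA as separate points and bars of ±1 SE. Filled points passed the test: enzymes and inhibitors lie to the right of 0, and the longest basement membrane genes and Vcan to the left.

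By role, the sides were uneven. Of the 8 genes of enzymes and chaperone, 7 were higher on ER ribosomes with each siRNA and 0 lower (medians 0.7, 0.74 and 0.79). Of the 5 proteases and inhibitors, 4 were higher and 0 lower (medians 0.65, 0.82 and 0.84). The 12 basement membrane genes split, with 2 higher and 4 lower under scramble, 4 and 3 under Nmd3, and 3 and 4 under Gnl3 siRNA (medians -0.29, -0.023 and -0.14). With Nmd3 ER replicate 2 left out the Nmd3 counts were 7 and 0 for enzymes and chaperone (median 0.706), 4 and 0 for proteases and inhibitors (0.721), and 4 and 5 for basement membrane genes (-0.23). Across all 3 siRNAs, 16 members were higher each time and 4 were lower each time (Lama1, Lama5, Agrn and Vcan), 9 were called with some siRNAs only and 9 with none. The matching shares of all genes were not counted. They cannot exceed the shares with Gnl3 siRNA, where 23.3% of all genes were higher and 24.9% lower.

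Serpinh1, the collagen chaperone of the ER lumen, had the largest difference among the processing genes under scramble siRNA. It was at 61.2, 66.8 and 65.7 CPM in the 3 scramble whole-cell libraries and at 123 and 119.8 CPM in the 2 scramble ER libraries, a log2 fold change of 0.89 (SE 0.07, adjusted p = 2.29e-13). With Nmd3 siRNA, levels were 62.6 and 62.9 CPM in whole-cell and 121, 146 and 122 CPM in ER RNA (1.04), and with Gnl3 siRNA 65.9 and 69.9 and 144, 143 and 146 CPM (1.04). Every ER library lay above every whole-cell library. Loxl2, a lysyl oxidase-like enzyme that acts on collagen IV, behaved in the same direction at a lower level. Its whole-cell values were 11.5, 11.7 and 12.0 CPM with scramble, 9.31 and 12.6 with Nmd3 and 12.5 and 14.5 with Gnl3 siRNA, and its ER values 21.4 and 21.3, then 17.7, 26.9 and 24.1, then 21.4, 27.1 and 24.7 CPM. The log2 fold changes were 0.83 (SE 0.15, adjusted p = 9.14e-05), 1.05 (SE 0.16, adjusted p = 9.63e-06) and 0.81 (SE 0.15, adjusted p = 0.000147).

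The prolyl 4-hydroxylase subunits P4ha1 and P4ha2, which make the hydroxyproline that stabilizes the triple helix, were higher on ER ribosomes by close amounts. P4ha1 rose from 52.1, 47.5 and 50.3 CPM to 82.9 and 80.7 CPM with scramble siRNA, 0.69 on the log2 scale (SE 0.06), and P4ha2 from 11.9, 10.5 and 10.2 to 17.9 and 18.1 CPM, 0.71 (SE 0.12). With the knockdowns the values were 0.75 and 0.83 for P4ha1 and 0.72 and 0.73 for P4ha2. Plod1, Plod2 and Plod3, the lysyl hydroxylases, were all higher too. Plod1 had log2 fold changes of 0.77, 1.0 and 0.63 with scramble, Nmd3 and Gnl3 siRNA, and Plod3 of 0.64, 0.71 and 0.77. Plod2 had the smallest difference of the 7 called, 0.25 (SE 0.07, adjusted p = 0.00238) with scramble siRNA, from 54.3, 56.3 and 57.3 CPM in whole-cell to 68.0 and 67.2 CPM in ER RNA. Lox, the lysyl oxidase with 1 to 21 counts a library, was not called (0.1, 0.3 and 1.6, SE 0.63 to 0.78).

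Among the collagens and matrix glycoproteins, Sparc, Fbln1 and Fstl1 were higher on ER ribosomes and Vcan lower with every siRNA. Sparc levels were 182, 178 and 179.5 CPM in scramble whole-cell libraries and 417 and 398 CPM in scramble ER libraries, 2.23-fold higher, or 1.15 (SE 0.05, adjusted p = 2.32e-19) on the log2 scale. It was at 183 and 202 against 449, 469 and 489 CPM with Nmd3 siRNA (1.28) and at 193 and 193 against 496, 467 and 472 CPM with Gnl3 siRNA (1.27). No ER library overlapped a whole-cell library. Fstl1, a follistatin-like relative of Sparc that binds BMP ligands, was at 57.9, 58.2 and 61.2 CPM in the whole-cell and 115 and 111 CPM in ER RNA with scramble siRNA (0.91, SE 0.07, adjusted p = 2.92e-14). With Nmd3 siRNA, levels were 64.0 and 72.7 against 144, 135 and 153 CPM (1.06), and with Gnl3 siRNA 69.7 and 75.7 against 154, 158 and 155 CPM (1.05). Fbln1, fibulin 1, which binds fibronectin and laminin, went the same way. Its values were 32.7, 30.4 and 31.0 against 62.8 and 62.0 CPM with scramble (0.97, SE 0.08, adjusted p = 3.17e-12), 26.2 and 28.6 against 55.7, 66.8 and 58.0 with Nmd3 (1.12) and 25.4 and 28.1 against 50.5, 58.5 and 57.1 with Gnl3 siRNA (1.01).

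Vcan, the large proteoglycan versican, went the other way. Vcan levels were 34.4, 26.7 and 33.3 CPM in scramble whole-cell libraries and 10.8 and 13.5 CPM in scramble ER libraries, a log2 fold change of -1.4 (SE 0.14, adjusted p = 1.08e-09) and the lowest of all members. With Nmd3 siRNA, levels were 26.2 and 31.2 against 10.8, 14.6 and 13.4 CPM (-1.16) and with Gnl3 siRNA 32.7 and 36.2 against 14.2, 12.8 and 15.4 CPM (-1.34). The ER libraries again lay apart from the whole-cell libraries. Fn1 did not pass with any siRNA (-0.4, 0.23 and -0.2, SE 0.21 each). The shared lysates of the fractions allow each lysate to be taken as a block. Only 2 lysates per siRNA have both fractions among the 15 libraries, so the block takes no fraction difference from scramble whole-cell replicate 1, Nmd3 ER replicate 2 or Gnl3 ER replicate 3. With it, Fn1 was called lower with scramble (-0.341, adjusted p = 0.000152) and Gnl3 siRNA (-0.245, adjusted p = 0.0036). Emilin1, an elastic-fibre glycoprotein, was called with Gnl3 siRNA alone, at 4.61 and 4.13 CPM in the whole-cell and 8.28, 7.22 and 7.41 CPM in ER RNA (0.77, SE 0.17, adjusted p = 0.000356), against log2 fold changes of 0.02 and 0.3 with scramble and Nmd3 siRNA.

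Bgn was called with Nmd3 siRNA, on few reads. It had 4 counts in each of the 2 Nmd3 whole-cell libraries (0.25 and 0.224 CPM) and 31, 31 and 20 counts in the Nmd3 ER libraries (1.86, 1.52 and 1.02 CPM), a log2 fold change of 2.59 (SE 0.61, adjusted p = 0.000497). With scramble (0.251, 0.505 and 0.615 against 1.08 and 0.582 CPM, 0.78, SE 0.54) and Gnl3 siRNA (0.329 and 0.75 against 1.22, 1.54 and 0.367 CPM, 0.94, SE 0.52) the libraries of the 2 fractions overlapped. It was called with Gnl3 siRNA without Gnl3 ER replicate 3 (1.27, adjusted p = 0.0343) and with the lysate block, which does not use that library either (1.31, adjusted p = 0.0354). Col1a1, the alpha 1 chain of type I collagen, was called with Nmd3 siRNA (0.74, SE 0.24, adjusted p = 0.0113, from 3.81 and 2.96 CPM to 4.08, 6.10 and 6.68 CPM), but not without whole-cell replicate 3 (adjusted p = 0.127), without ER replicate 3 (0.0566) or with the lysate block (0.0662). It was not called with scramble (0.55, adjusted p = 0.0605, and 0.0492 with the lysate block) or Gnl3 siRNA (0.46). Col1a2 and Col6a1 were not called with all main libraries, with SE of 0.58 to 0.69.

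Timp1, an inhibitor of matrix metalloproteases, had the largest difference of its group. Whole-cell values were 13.9, 13.5 and 12.4 CPM with scramble, 11.1 and 14.0 with Nmd3 and 13.6 and 13.6 with Gnl3 siRNA. ER values were 30.9 and 28.9 CPM with scramble, 33.5, 35.6 and 35.0 with Nmd3 and 30.4, 32.9 and 31.0 with Gnl3 siRNA. The log2 fold changes were 1.15 (SE 0.1, adjusted p = 3.63e-12), 1.46 (SE 0.11, adjusted p = 3.52e-14) and 1.17 (SE 0.1, adjusted p = 7.73e-12), with no overlap between the fractions. Timp2, the related inhibitor, had close ratios: 6.34, 6.78 and 5.89 against 13.5 and 12.9 CPM with scramble (1.04, SE 0.14), 6.25 and 5.42 against 10.9, 12.8 and 11.9 with Nmd3 (1.03) and 6.05 and 7.02 against 12.2, 15.0 and 14.8 with Gnl3 siRNA (1.05). Timp3, the matrix-bound inhibitor, had smaller log2 fold changes of 0.65, 0.43 and 0.84. Its call with Nmd3 siRNA was lost without whole-cell replicate 1 (adjusted p = 0.0867) or 3 (0.0911) and with the lysate block (0.0572). Mmp14, a membrane-anchored metalloprotease that Timp2 binds, was at 19.6, 20.9 and 19.1 CPM in the whole-cell and 28.3 and 29.2 CPM in ER RNA with scramble siRNA (0.51, SE 0.1, adjusted p = 3.35e-05), and its log2 fold changes were 0.82 with Nmd3 and 0.79 with Gnl3 siRNA. Adamts1, a secreted protease that cleaves versican, was not called (0.1, -0.11 and -0.13, SE 0.2 to 0.21).

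**Figure D2:**
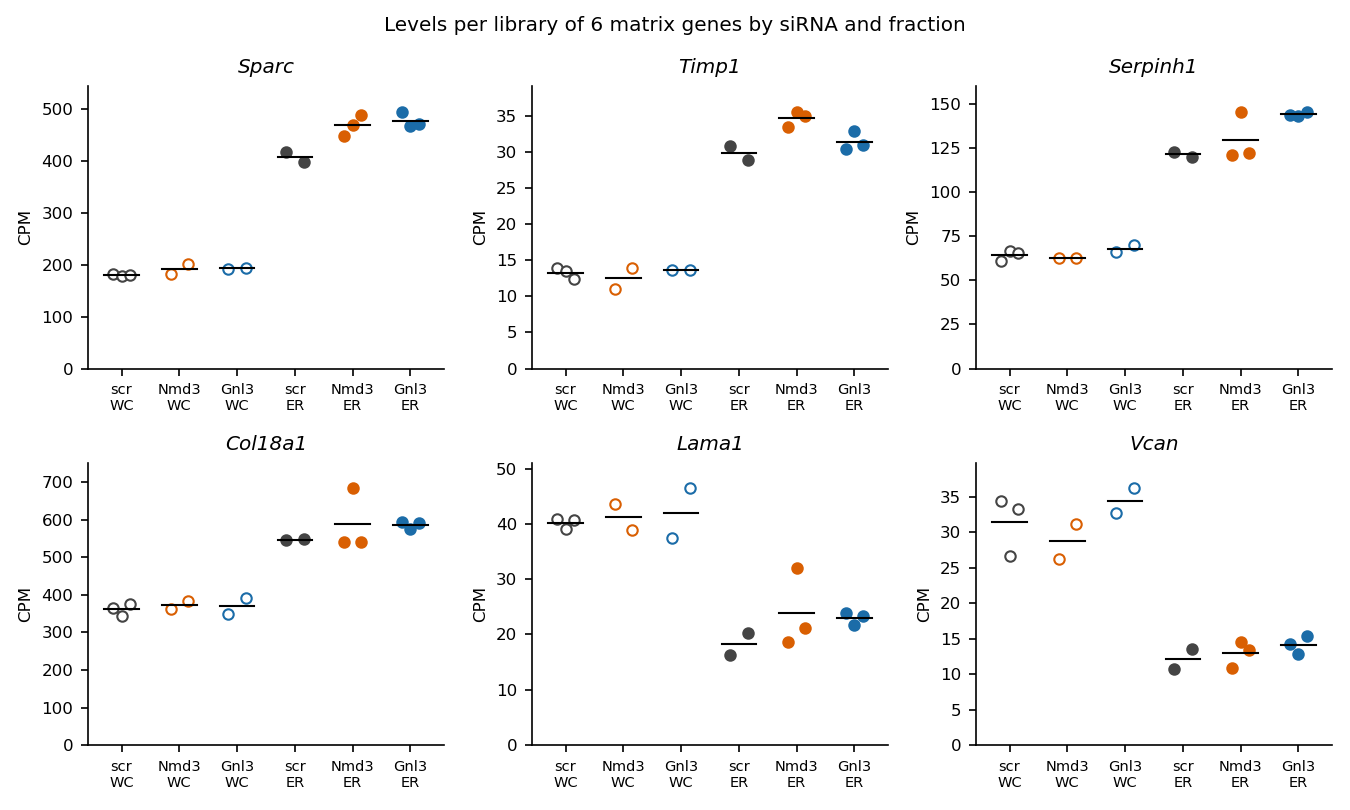
CPM in each library (points; horizontal bar, group mean) of Sparc, Timp1, Serpinh1, Col18a1, Lama1 and Vcan in whole-cell (WC, open) and ER ribosome-bound RNA (ER, filled) by siRNA (scr, scramble); each panel's vertical axis starts at 0. ER points lie above the whole-cell points in the first 4 genes and below them in Lama1 and Vcan, and Nmd3 ER replicate 2 is the highest Nmd3 ER point of Lama1, at 32.1 CPM.

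The basement membrane genes did not move together. Col18a1 was at 366, 344 and 376 CPM in the whole-cell and 546 and 549.8 CPM in ER RNA with scramble siRNA (0.57, SE 0.1, adjusted p = 0.000321), and its log2 fold changes were 0.65 with Nmd3 and 0.62 with Gnl3 siRNA. Npnt, the integrin ligand nephronectin, was higher on ER ribosomes as well, from 3.45, 4.65 and 5.54 CPM to 7.29 and 9.52 CPM with scramble siRNA (0.84, SE 0.17, adjusted p = 8.99e-05). Its log2 fold change with Gnl3 siRNA, 0.6, was not called without whole-cell replicate 1 (adjusted p = 0.0603). These were the only 2 of the 12 that were higher with every siRNA.

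Both laminin alpha chains were lower on ER ribosomes. Lama1 levels were 40.9, 39.1 and 40.7 CPM in scramble whole-cell libraries and 16.2 and 20.2 CPM in scramble ER libraries (-1.17, SE 0.2, adjusted p = 0.000596). It was at 43.6 and 38.9 against 18.6, 32.1 and 21.2 CPM with Nmd3 (-0.78, SE 0.19, adjusted p = 0.0057) and at 37.5 and 46.5 against 23.8, 21.7 and 23.3 CPM with Gnl3 siRNA (-0.92, SE 0.19, adjusted p = 0.00201). Lama5 was at 273, 228 and 280.5 against 136 and 146 CPM with scramble (-0.91, SE 0.19, adjusted p = 0.00295), at 254 and 270.5 against 141, 226 and 151 with Nmd3 (-0.61, SE 0.19, adjusted p = 0.021) and at 252 and 289 against 168, 165 and 173 with Gnl3 siRNA (-0.72, SE 0.19, adjusted p = 0.009). No fraction overlapped the other in these genes, but several of the calls were lost when 1 library was left out. Leaving out Nmd3 ER replicate 2 instead gave larger differences with Nmd3 siRNA, -1.06 for Lama1 (adjusted p = 1.88e-12) and -0.86 for Lama5 (adjusted p = 1.6e-08). With Nmd3 siRNA, Lama5 was not called without ER replicate 1 or 3 or whole-cell replicate 1 or 3 (adjusted p from 0.0579 to 0.113), nor Lama1 without whole-cell replicate 1 (0.0609). With Gnl3 siRNA, Lama5 was not called without whole-cell replicate 2 (0.0783). Agrn, the heparan sulfate proteoglycan agrin, was at 215, 193 and 229 against 115 and 129 CPM with scramble (-0.83, SE 0.17, adjusted p = 0.00231), 236 and 203 against 105, 157 and 109 with Nmd3 (-0.84) and 212 and 228 against 124, 112 and 120.0 with Gnl3 siRNA (-0.93).

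The beta and gamma laminin chains stood between these. Lamb1, Lamb2 and Lamc1 passed with no siRNA, with log2 fold changes from -0.38 to 0.1. With the lysate block, Lamb1 was called lower with all 3 siRNAs (-0.358, -0.325 and -0.299, adjusted p = 6.39e-05, 0.000215 and 0.000517) and Lamb2 with scramble siRNA (-0.25, adjusted p = 0.0492). Lamb1 was also called lower without Nmd3 ER replicate 2 with Nmd3 siRNA (-0.325, adjusted p = 3.2e-05) and in DESeq2 with scramble siRNA (-0.393, adjusted p = 0.046). Lamc1 was at 346, 287 and 327 CPM in the whole-cell and 292 and 272 CPM in ER RNA with scramble siRNA (-0.21, SE 0.1), with overlapping libraries. Lamc1 was called lower with scramble siRNA in DESeq2 (-0.224, adjusted p = 0.0319) and without scramble whole-cell replicate 2 (-0.278, adjusted p = 0.0262).

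Col4a1, an alpha chain of the collagen IV network, was lower with scramble siRNA, from 25.4, 23.4 and 25.1 CPM to 15.2 and 17.7 CPM (-0.61, SE 0.11, adjusted p = 2.77e-05). It was not called with Nmd3 (27.2 and 23.1 against 18.9, 25.6 and 19.9 CPM, -0.23) or Gnl3 siRNA (24.1 and 26.7 against 23.4, 22.1 and 24.4 CPM, -0.17). Without Nmd3 ER replicate 2 it was called with Nmd3 siRNA (-0.386, adjusted p = 0.00213). The lysate block, which does not use that library either, gave -0.384 (adjusted p = 0.00417) and is no second line of evidence. Col4a2, its partner chain, was called with Gnl3 siRNA, from 13.6 and 16.6 CPM to 13.1, 10.1 and 11.5 CPM (-0.43, SE 0.13, adjusted p = 0.00658), and not without Gnl3 ER replicate 2 (0.0608) or whole-cell replicate 2 (0.229). Its log2 fold changes were -0.28 with scramble and -0.11 with Nmd3 siRNA. Nid1 had close levels in both fractions with scramble siRNA, 69.1, 65.6 and 70.9 against 69.2 and 69.1 CPM (-0.01, SE 0.09). It was higher on ER ribosomes with Nmd3 (65.9 and 72.0 against 81.0, 106 and 91.9 CPM, 0.42, SE 0.09, adjusted p = 0.000208) and Gnl3 siRNA (65.9 and 65.8 against 80.0, 85.8 and 93.1 CPM, 0.35, SE 0.09, adjusted p = 0.00166). Nid2 was called with Nmd3 siRNA (0.44, SE 0.13, adjusted p = 0.019) but not without whole-cell replicate 1 (0.132) or 3 (0.0632). It had 0.06 with scramble and 0.18 with Gnl3 siRNA, the latter called with the lysate block (0.159, adjusted p = 0.0251).

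The latent TGF-beta binding proteins, which hold the growth factor in the matrix, split into 3 behaviours. Ltbp1 was at 15.9, 13.1 and 14.2 against 6.85 and 6.56 CPM with scramble (-1.12, SE 0.39, adjusted p = 0.0376), at 14.1 and 10.5 against 5.59, 14.5 and 5.20 CPM with Nmd3 (-0.52, SE 0.38, adjusted p = 0.295) and at 13.3 and 16.6 against 6.83, 6.22 and 6.49 CPM with Gnl3 siRNA (-1.25, SE 0.37, adjusted p = 0.0197). Nmd3 ER replicate 2, at 14.5 CPM, lay above both Nmd3 whole-cell libraries, and without it Ltbp1 was called with Nmd3 siRNA too (-1.2, adjusted p = 2.24e-08; -1.19, adjusted p = 5.92e-07, with the lysate block, which does not use it either). The scramble call was lost without each of its 5 libraries in turn (adjusted p from 0.0548 to 0.153). The Gnl3 call was lost without ER replicate 2 (0.0583) or whole-cell replicate 2 (0.139). Ltbp4 was slightly higher with scramble (190.2, 189 and 199 against 224 and 231 CPM, 0.22, SE 0.06, adjusted p = 0.00162) and Gnl3 siRNA (0.22, SE 0.06), the scramble call being lost without ER replicate 3 (adjusted p = 0.057), and was at 0.07 with Nmd3 siRNA. Ltbp3 was not called (0.01, -0.05 and 0.25, SE 0.15).

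The order of the members on this scale followed the length of their coding regions. Members that were higher with scramble siRNA had longest annotated coding regions of 615 to 5322 nt (median 1746), those lower 5007 to 11154 nt (median 7675), and those not called a median of 4116 nt. Sparc has 996 nt, Timp1 615, Timp2 660, Fstl1 918 and Serpinh1 1251, while Vcan has 10062, Lama1 9249, Lama5 11154 and Agrn 6102. Across the 38 members the Spearman correlation of coding length with the log2 fold change was -0.84 with scramble, -0.8 with Nmd3 (-0.83 without Nmd3 ER replicate 2) and -0.9 with Gnl3 siRNA. Over 14272 genes with a coding region it was -0.53, -0.48 and -0.48, so mRNAs outside the matrix list also fell with length on this scale. Genes are not independent replicates, all points share the same libraries, and the values come with no test. Col18a1, at 5322 nt, and Col4a1, at 5007 nt, are of close length and lay on opposite sides.

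When genes of similar length were set side by side, most members lay above the median for their length. In bins with edges at 1000, 2000, 3000, 5000 and 8000 nt, 36 of the 38 members with scramble, 38 with Nmd3 (34 without Nmd3 ER replicate 2) and 34 with Gnl3 siRNA were above the median of all genes in their bin. In the bin from 5000 to 8000 nt, the 461 genes had a median of -0.96 with scramble siRNA and the 8 members (Col18a1, Ltbp1, Lamb1, Fn1, Col4a1, Col4a2, Agrn and Lamb2) a median of -0.39. Above 8000 nt, 171 genes had a median of -1.28 and Lama1, Lama5 and Vcan one of -1.17. Below 1000 nt, 4518 genes had a median of 0.33 and Timp1, Timp2, Timp3, Sparc and Fstl1 one of 1.04. A gene such as Lama5, lower on ER ribosomes than the average mRNA, was thus above the median of mRNAs of its length with scramble siRNA. With the coding length of the principal transcript, a choice added after the values were seen, the members' correlations were -0.75, -0.71 and -0.81 and the counts 36, 36 and 34. Vcan moves most between the definitions, since its principal transcript has 1965 coding nt.

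**Figure D3:**
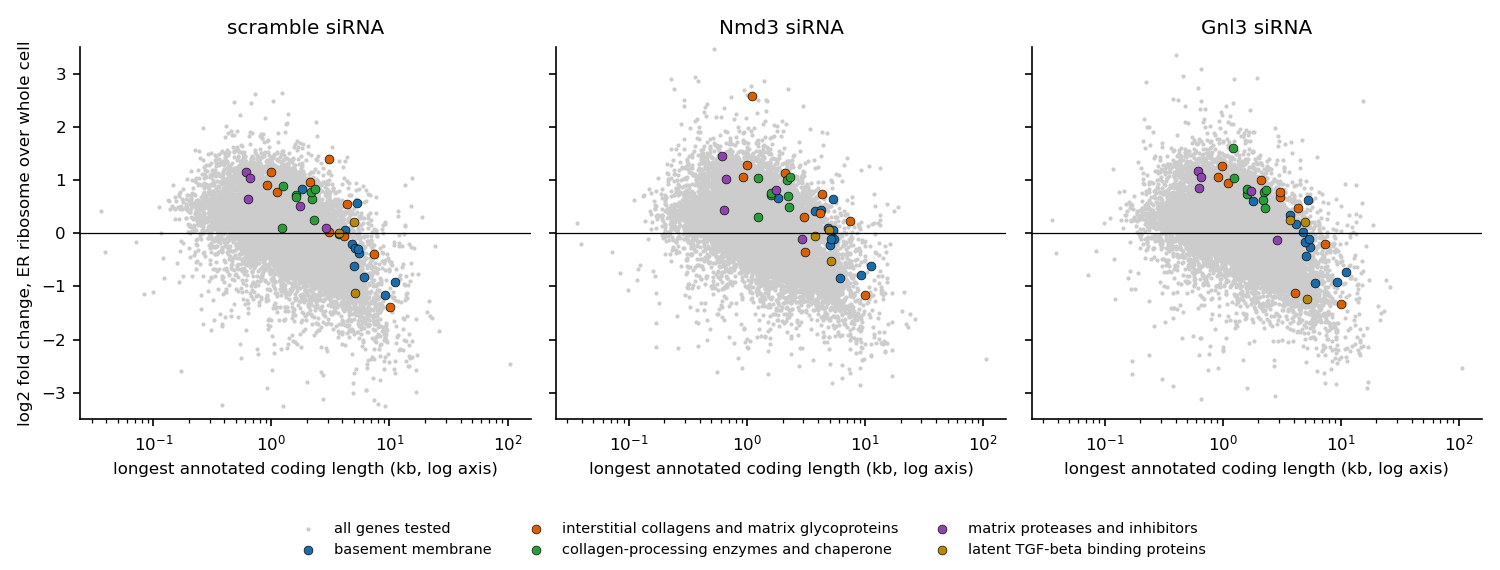
Log2 fold change of ER ribosome-bound over whole-cell RNA (vertical axis) against the longest annotated coding length in kb (horizontal log axis), 1 panel per siRNA; grey points are all genes tested with a coding region, coloured points the 38 members by role, and the horizontal line marks 0. Short members such as Timp1 and Sparc lie above 0, and Lama1, Lama5 and Vcan, at the right, below it; 15, 16 and 15 genes lie outside the plotted range with scramble, Nmd3 and Gnl3 siRNA.

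Whether the ER ratio itself differed between siRNAs was tested as an interaction, and no member passed. For Nmd3 against scramble siRNA, 0 of 38 members and 0% of all genes were called (6 members and 1078 genes at an unadjusted p under 0.05; DESeq2 called 2 genes and 0 members), and for Gnl3 against scramble 0 members and 0% of all genes (4 members and 649 genes; DESeq2 0 genes). The calls that were made with some siRNAs only are therefore not shown to differ between siRNAs. The differences of ratio had medians of 0.21 and 0.12 over the members, with 30 and 28 of 38 above 0, against 0.0107 and 0.00309 over all genes. The Nmd3 median was 0.0603 without Nmd3 ER replicate 2, with 26 of 38 above 0, against 0.00928 over all genes, and 0 members were called. Among the members, Nid1 had the smallest p under Nmd3 siRNA, 0.43 (SE 0.12, adjusted p = 0.614), and 0.36 (SE 0.12, adjusted p = 0.999) under Gnl3 siRNA. Col4a1 had 0.38 and 0.44 (adjusted p = 0.828 and 0.999), and Plod2 0.24 and 0.22 (adjusted p = 0.809 and 0.999). Emilin1 had the smallest p under Gnl3 siRNA, 0.74 (SE 0.25, adjusted p = 0.999). The Nmd3 differences without Nmd3 ER replicate 2 were 0.32 for Nid1, 0.23 for Col4a1 and 0.19 for Plod2. The 2 sets of differences share the scramble libraries.

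On ER ribosomes, a small group of members was higher after the knockdowns. With Nmd3 siRNA, 3 of the 37 members tested rose against scramble (Sparc, Fstl1 and Plod2) and 0 fell, where 1.17% of all 17632 genes were called, 0.652% higher. With Gnl3 siRNA 5 rose (the same 3, Col4a1 and Mmp14) and 0 fell, where 2.68% of all genes were called, 1.51% higher. Both comparisons share the 2 scramble ER libraries. In each, 30 of the 37 members were above 0, with a median log2 fold change of 0.18 both times, against 0.0022 and -0.00197 over all genes. The Nmd3 median was 0.0177 without Nmd3 ER replicate 2, with 24 of 37 above 0, against -0.00115 over all genes, so the Nmd3 median rested on that library. Summed fibroblast markers were 54.9 and 60 CPM in scramble ER libraries, 58.2 to 63.4 in Nmd3 and 64.3 to 71.5 in Gnl3 ER libraries, and summed endothelial markers 12.5 and 13.5, 17.5 to 22.0, and 20.4 to 24.1 CPM. Their part in the result was not tested. In each of these groups 3 of the 5 endothelial markers had means under 1 CPM, and Tek was the most abundant. Fap and Emcn were at 0 in all these libraries.

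Fstl1 had the smallest adjusted p. It was at 115 and 111 CPM in scramble ER libraries, 144, 135 and 153 in Nmd3 and 154, 158 and 155 in Gnl3 ER libraries, log2 fold changes of 0.35 (SE 0.05, adjusted p = 0.000563) and 0.45 (SE 0.05, adjusted p = 8.78e-06). Plod2 was at 68.0 and 67.2 CPM, then 78.7, 90.8 and 89.0 and 94.6, 94.7 and 95.3 CPM, or 0.36 (SE 0.07, adjusted p = 0.00312) and 0.48 (SE 0.07, adjusted p = 5.11e-05). Sparc was at 417 and 398 CPM, then 449, 469 and 489 and 496, 467 and 472 CPM, or 0.21 (SE 0.05, adjusted p = 0.0141) and 0.22 (SE 0.05, adjusted p = 0.00469). In all 3 genes each knockdown library lay above both scramble libraries. With Nmd3 siRNA all 3 calls were lost without scramble ER replicate 3 (adjusted p = 0.095 for Fstl1, 0.167 for Plod2 and 0.434 for Sparc), and those of Plod2 and Sparc without scramble ER replicate 2 (0.085 and 0.0959). With Gnl3 siRNA the calls of Fstl1 and Plod2 stood without any 1 library, and Sparc was lost without scramble ER replicate 2 (0.0518) or 3 (0.211).

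Col4a1 was at 15.2 and 17.7 CPM on scramble and 23.4, 22.1 and 24.4 CPM on Gnl3 ER ribosomes (0.49, SE 0.12, adjusted p = 0.0299), and Mmp14 at 28.3 and 29.2 and 37.3, 37.6 and 34.5 CPM (0.33, SE 0.09, adjusted p = 0.0434). The libraries did not overlap, but both calls were lost without any 1 of the 5 libraries (adjusted p from 0.0579 to 0.423 for Col4a1 and from 0.0726 to 0.38 for Mmp14). Lamc1 and Nid1 were not called, although no knockdown library overlapped the scramble libraries. The share of all genes that separated in this way was not counted. Lamc1 was at 292 and 272 CPM with scramble, 323, 412 and 355 with Nmd3 and 347, 359.6 and 354 with Gnl3 siRNA (0.37, SE 0.11, adjusted p = 0.269 and 0.31, SE 0.11, adjusted p = 0.276). Nid1 was at 69.2 and 69.1, then 81.0, 106 and 91.9, then 80.0, 85.8 and 93.1 CPM (0.44, SE 0.11, adjusted p = 0.131 and 0.31, SE 0.11, adjusted p = 0.234). Both passed with Nmd3 siRNA without Nmd3 ER replicate 2 (0.261, adjusted p = 6.96e-05, and 0.32, adjusted p = 0.00097) and in DESeq2 (0.375, adjusted p = 0.00169, and 0.437, adjusted p = 0.00201). With Gnl3 siRNA DESeq2 called Lamc1 (0.316, adjusted p = 0.0107) and not Mmp14 (0.337, adjusted p = 0.0536). Without Nmd3 ER replicate 2, 7 members were called with Nmd3 siRNA, 6 higher (Sparc, Fstl1, Plod2, Nid1, Nid2 and Lamc1) and 1 lower, Agrn (-0.196, adjusted p = 0.0393), which had 0.03 with that library, where 2.09% of all genes were called. Serpinh1 had log2 fold changes of 0.11 and 0.24 and P4ha1 of 0.04 and 0.14, with neither called. Scaled by library totals alone, Serpinh1 passed with Gnl3 siRNA (0.247, adjusted p = 0.0319). Between the 2 knockdowns, no member passed on ER ribosomes (0 of 37 called in edgeR, 3 at an unadjusted p under 0.05, with 2.19% of all genes called). Without Nmd3 ER replicate 2, Ltbp4 (-0.182), Lama5 (-0.201) and Serpinh1 (-0.237) were called lower with Nmd3 than with Gnl3 siRNA, where 4.01% of all genes were called.

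**Figure D4:**
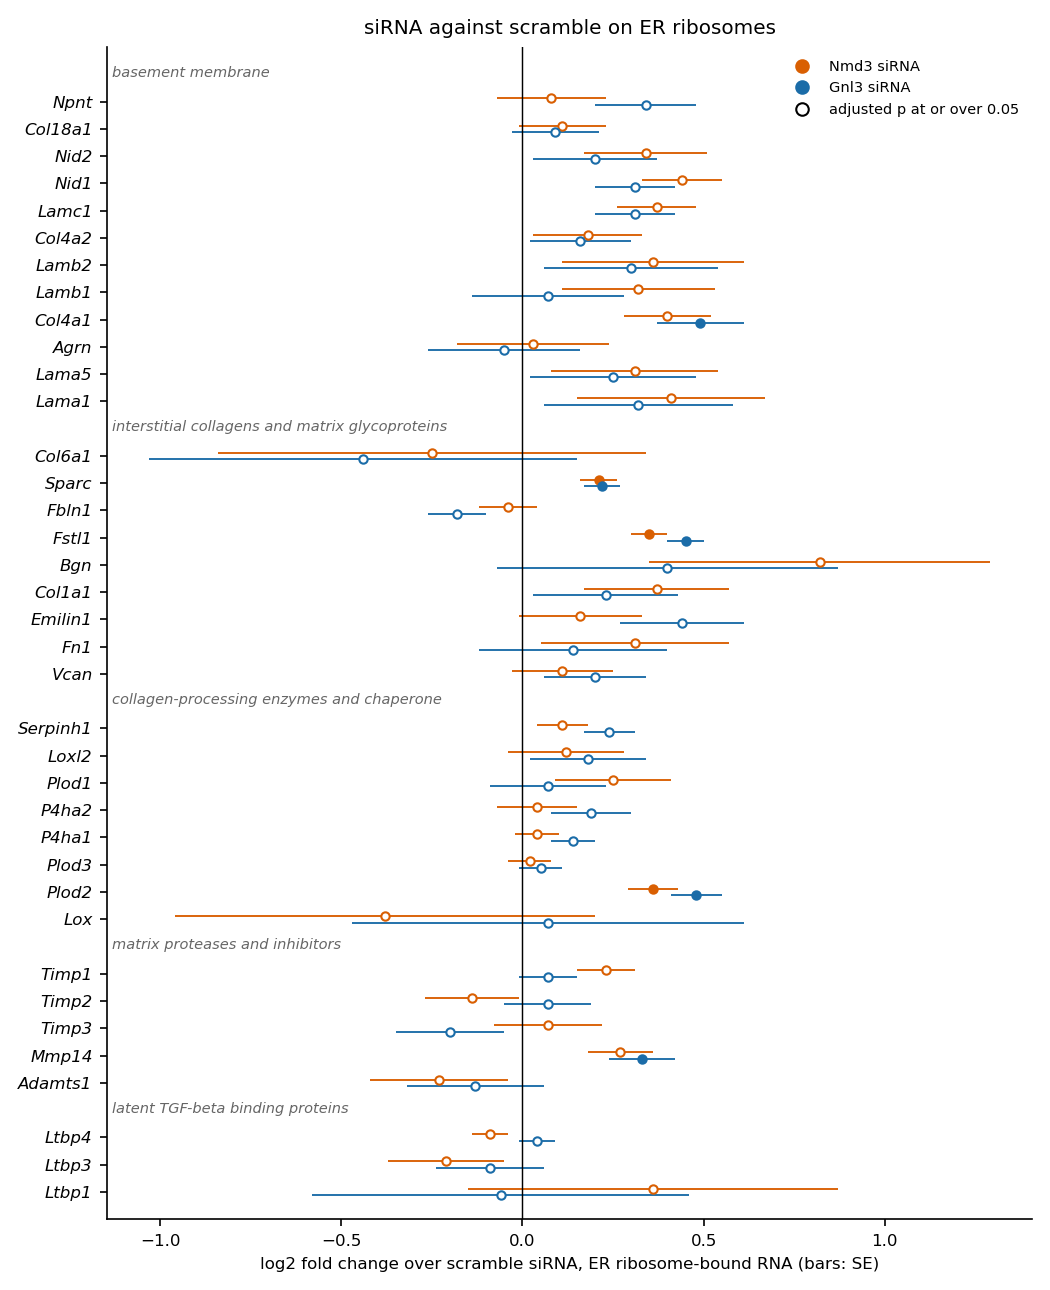
Log2 fold change of Nmd3 and Gnl3 siRNA against scramble in ER ribosome-bound RNA (horizontal axis) for the 37 members tested, grouped by role, with bars of ±1 SE; open points did not pass the test. The filled points, 3 with Nmd3 and 5 with Gnl3 siRNA, lie to the right of 0.

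**Figure D5:**
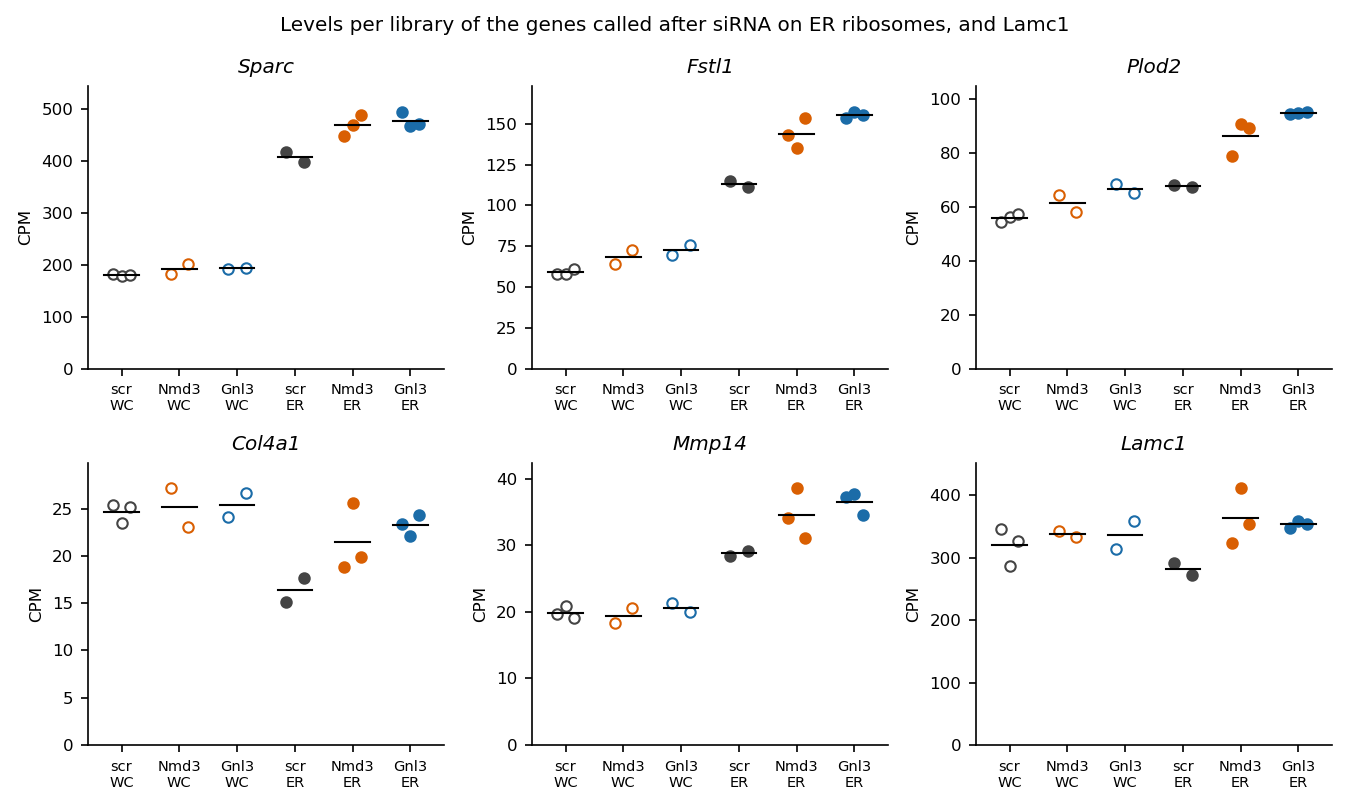
CPM in each library (points; horizontal bar, group mean) of Sparc, Fstl1, Plod2, Col4a1, Mmp14 and Lamc1 in whole-cell (WC, open) and ER ribosome-bound RNA (ER, filled) by siRNA (scr, scramble); each panel's vertical axis starts at 0. On ER ribosomes the 6 knockdown libraries lie above both scramble libraries in all 6 genes, while whole-cell levels of Col4a1 and Mmp14 overlap between siRNAs. All but Lamc1 are shown because they were called on these ER libraries, and Lamc1 was not called. The separation there is no further evidence for any of the 6 genes.

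In whole-cell RNA, Fstl1 was the only member called. It was at 57.9, 58.2 and 61.2 CPM with scramble, 64.0 and 72.7 with Nmd3 and 69.7 and 75.7 with Gnl3 siRNA, and rose with Gnl3 siRNA (0.3, SE 0.07, adjusted p = 0.0358), where 0.812% of 17490 genes were called, 0.515% higher. That call was lost without any 1 of its 5 libraries (adjusted p from 0.0939 to 0.552) and with the 2 dropped libraries included (0.999). Plod2 had the next smallest p (54.3, 56.3 and 57.3 against 68.3 and 65.2 CPM, 0.26, SE 0.07, adjusted p = 0.0949), and Sparc was at 0.11 (SE 0.06). With Nmd3 siRNA 0 of 37 members were called (3 at an unadjusted p under 0.05; 0.166% of all genes), and 0 between the 2 knockdowns (5 at an unadjusted p under 0.05; 0.212% of all genes). Fn1 had the smallest p with Nmd3 siRNA, at 364, 294 and 359.7 CPM with scramble and 269 and 277 CPM with Nmd3 siRNA (-0.32, SE 0.08, adjusted p = 0.215). It was called without scramble whole-cell replicate 2 (-0.404, adjusted p = 0.0138). Col4a1 and Mmp14, called on Gnl3 ER ribosomes, had whole-cell log2 fold changes of 0.05 and 0.05, with adjusted p of 0.964 and 0.959.

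A further 100 genes of the same pathway were listed by role, also with earlier results known, and 85 were tested between the fractions. Of these, 45 were higher and 7 lower on ER ribosomes with scramble, 53 and 3 with Nmd3, and 47 and 4 with Gnl3 siRNA. As shares of the 85, 61.2%, 65.9% and 60% were called, against 50.3%, 50.1% and 48.1% of all genes, of which about as many were higher (25.1%, 24.5% and 23.3%) as lower (25.3%, 25.6% and 24.9%). The Nmd3 counts without Nmd3 ER replicate 2 were 43 and 5 (all genes 48.6% called). Values in parentheses for these genes are log2 fold changes that passed the test. Of the 26 tested genes of collagen processing and export, 16 were higher with scramble siRNA, among them Crtap (1.33) and P3h1 (0.8), partners in prolyl 3-hydroxylation, Ppib (1.21), their cyclophilin, and P4hb (1.0), the beta subunit that P4ha1 and P4ha2 need. Mia3, the ER exit factor for collagen, was lower (-0.36). Of 38 other matrix proteins 15 were higher and 6 lower, the lower including the perlecan gene Hspg2 (-0.59) and Fras1 (-0.84). Of 21 receptors 14 were higher, with the proteoglycan Sdc4 at 1.43 and the integrin chain Itgb1 at 0.42, and 0 lower. Ppib and Fras1 overlap genes on the other strand.

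After Gnl3 siRNA, 7 of 83 of these genes were higher and 0 lower on ER ribosomes, where 1.51% of all genes were higher: Loxl4 (1.09), Tinagl1 (0.61), Ccn2 (0.52), Ccn1 (0.5), Thbs1 (0.5), Sdc4 (0.35) and Bcam (0.3). Ccn1, Ccn2 and Thbs1 encode matricellular proteins. Ccn1, Ccn2, Thbs1 and Sdc4 were also higher in Gnl3 whole-cell RNA (0.57, 0.57, 0.53 and 0.39), with Itga3 (0.23), of 81 tested, where 0.515% of all genes were higher. Ccn2, Thbs1 and Bcam overlap genes on the other strand. After Nmd3 siRNA, the genes higher on ER ribosomes included Tinagl1 (0.81) and Bcam (0.23), where 0.652% of all genes were higher, and Frem2 was lower in whole-cell RNA (-0.61), where 0.166% of all genes were called. When Nmd3 ER replicate 2 was left out, Tinagl1 (0.7) and Bcam (0.19) were called as well, with Hspg2 (0.29), Pcolce2 (0.31), Ccn1 (0.24) and Itga3 (0.19) higher and Frem2 lower (-0.47). Directly compared on ER ribosomes, Thbs1 (-0.55), Ccn2 (-0.35), Sdc4 (-0.29) and Ccn1 (-0.28) were lower with Nmd3 than with Gnl3 siRNA, and Itga9 (0.35) and Colgalt1 (0.19) higher, where 2.19% of all genes were called. When that library was left out, Colgalt1 was not called, the other 5 were, and Itga3 (-0.2), Itgb1 (-0.15) and Ddr1 (-0.19) were lower too.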

How the data were processed

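The counts are whole numbers of reads per Ensembl gene ID, deposited as 1 file per library. The authors aligned with STAR 2.7.9a, counted with HTSeq 0.11.2 and used DESeq2 on GRCm39, per the submitters' processing notes; the library kit is directional, per the labels' protocols, and the strand setting and annotation release are not given in the sources used here. Of all reads in the files, 46.6 to 48.4% fell on no gene, 5.11 to 10.2% were not uniquely aligned and 0.36 to 0.57% were ambiguous; the 5 lines that name no gene stayed out of library sizes and tests. Symbols, exon lengths and coding sequences came from GENCODE M21 (GRCm38), which matched 52083 of 55416 IDs, so no coordinates are given. The motif description that had been planned on proteins was replaced by coding length, chosen after values were seen.

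Tests used edgeR 4.0.16 (R 4.3.3): low counts removed with filterByExpr, TMM scaling, robust quasi-likelihood fits and Benjamini-Hochberg adjustment over all genes. Fraction comparisons and interactions used 1 fit of 15 libraries (18271 genes), siRNA comparisons 1 fit of 8 ER (17632) and 1 of 7 whole-cell libraries (17490). Standard errors were derived as the absolute log2 fold change over the root of the F statistic. The fits were also run on simulated independent libraries with 1 spread for all genes. That simulation held no shared lysates and no length tilt between libraries, so it cannot show how either bears on the calls. Alternatives were all 17 libraries, a replicate block, DESeq2 1.42.0, RLE scaling, library totals, no low-count filter, and each replicate left out. The fractions share lysates, per the labels, so replicate numbers pair them; residuals of same-numbered libraries correlated at -0.03 to 0.11 over 11468 genes. Between siRNAs the numbers correlated at -0.14 to 0.08 and were not taken as pairs. Since fractions of shared lysates correlated no higher than 0.11, these values cannot show whether the numbers pair the siRNA groups. Per-library values are given for up to 6 called members with the largest change in each direction and for at least 1 per role group. The members and lists were chosen with earlier results of these data known. Replicates are labelled biological, and p-values measure the spread between these libraries.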

Additional observations from a re-analysis of the deposited data

Results flagged for a closer look

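In the 2 whole-cell libraries that the submitters dropped, and that entered no main comparison, 3 members with at least 20 counts stood over 1.5 times above the highest of the 7 kept whole-cell libraries. In Gnl3 whole-cell replicate 3, Vcan was at 62.54 CPM (1267 counts) against at most 36.22 CPM, and Col6a1 at 1.431 CPM (29 counts) against at most 0.7494 CPM. In Nmd3 whole-cell replicate 2, Timp1 was at 28.53 CPM (650 counts) against at most 13.98 CPM. Most other members were low there: 34 of the 40 in Nmd3 replicate 2 and 22 in Gnl3 replicate 3 were below the lowest kept whole-cell library, and 3 and 6 were above the highest. The matching shares of all genes were not counted, so these values are not shown to be particular to matrix genes. Across all genes, adding both libraries to the whole-cell fit raised the biological coefficient of variation from 0.0589 to 0.316.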

How the results depend on the processing

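Between the fractions, the number of members called with each siRNA stayed within 1.5 times of the main count under the replicate block, DESeq2, RLE scaling, library totals, no low-count filter and each left-out replicate; with all 17 libraries 10 members were called with scramble and 16 with Gnl3 siRNA, and 2353, 2819 and 4540 genes with scramble, Nmd3 and Gnl3 siRNA. Of the genes called with scramble siRNA, 40.5% were then higher, against 49.8%. In whole-cell RNA, all 17 libraries left 0 genes called for Nmd3 against scramble, 0 for Gnl3 against scramble (0 members) and 0 between the knockdowns. Between the fractions, the replicate block called 18 members higher and 9 lower with scramble siRNA. It called 18 and 7 with Nmd3 and 21 and 8 with Gnl3 siRNA. The main counts were 17 and 6, 20 and 4, and 19 and 6. Over all genes the block called 4261 higher and 4389 lower, 4193 and 4350, and 4033 and 4379. With each left-out replicate, members called ranged from 21 to 23 with scramble, 20 to 27 with Nmd3 and 22 to 26 with Gnl3 siRNA.

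For siRNA effects the counts moved more. With the replicate block, 126 genes were called for Nmd3 and 258 for Gnl3 on ER ribosomes, 63 between the knockdowns in whole-cell RNA and 1 for the Nmd3 interaction; among members, Lamc1 (0.417, adjusted p = 0.00319, and 0.366, adjusted p = 0.00429) and Nid1 (0.504, adjusted p = 0.00218, and 0.382, adjusted p = 0.0113) were called with Nmd3 and Gnl3 siRNA, and Sparc with Nmd3 (adjusted p = 0.0517) and Col4a1 (0.0673) and Mmp14 (0.0925) with Gnl3 siRNA were not. Whether the numbers pair these groups cannot be told from the correlations of same-numbered libraries. Without the low-count filter, 6 and 8 members were called on ER ribosomes with Nmd3 and Gnl3 siRNA. Genes called there numbered 407 for Nmd3, 665 for Gnl3 and 586 between the knockdowns. In whole-cell RNA that setting called 1 member (Fn1) and 115 genes with Nmd3 siRNA, and 1 member (Fn1) and 122 genes between the knockdowns. It also called 1 member (Nid1) and 14 genes for the Nmd3 and 1 gene for the Gnl3 interaction. DESeq2 called 5 members and 190 genes on Nmd3 ER ribosomes and 2 genes for the Nmd3 interaction, and library totals 1 gene for that interaction. With library totals, 34.8% of genes called between the knockdowns on ER ribosomes were higher with Nmd3 siRNA, against 45%.

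With each left-out replicate, members called on ER ribosomes ranged from 0 to 7 with Nmd3 siRNA (genes 23 to 366), 2 to 3 with Gnl3 (70 to 299) and 0 to 3 between the knockdowns (159 to 703). In whole-cell RNA they ranged from 0 to 1 with Nmd3 (genes 8 to 1024), 0 to 0 with Gnl3 (17 to 66) and 0 to 2 between the knockdowns (7 to 983), and genes of the Nmd3 interaction from 0 to 304. For the comparisons with Nmd3 siRNA here, the highest gene counts came without Nmd3 ER replicate 2 (ER ribosomes) or Nmd3 whole-cell replicate 3 (whole-cell RNA and interaction), and the causes were not tested. The Nmd3 whole-cell, Gnl3 whole-cell and scramble ER groups hold 2 libraries each, so leaving 1 out leaves a single library there. Calls gained or lost in those fits, here and above, take their spread from the other groups only. Agrn with Nmd3 against scramble siRNA on ER ribosomes ranged from -0.196 to 0.139, and Lama5 between the knockdowns from -0.201 to 0.189, both turning sign without Nmd3 ER replicate 2. Depth limits Col1a2, Col3a1, Col6a1, Tnc, Lox and Bgn.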
